A study of Mus musculus with 6 samples.

Results

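Branched-chain amino acid catabolism is the mitochondrial pathway that breaks down leucine, isoleucine and valine. Its members here were 10 genes named by symbol, Bcat2, Bckdha, Bckdhb, Dbt, Ivd, Mccc1, Mccc2, Pccb, Mut (written Mmut on the platform) and Acad8, and every probe set that the platform annotation gives to one of them was taken. All 10 were measured, by 14 of the 22626 probe sets tested, and 11 of the 14 were brighter on average than the median probe set, the others being called dim here. Total RNA of whole brown adipose tissue from mice of mixed C57BL6 and 129 background, 3.5 months old, had been hybridised to Affymetrix arrays. The control group held 3 arrays from YY1flox/flox mice, whose Yy1 alleles are floxed but intact. The YY1bKO group held 3 arrays from YY1flox/flox; Ucp1Cre mice, in which a Cre recombinase driven by the Ucp1 promoter removes the floxed part of Yy1 in brown adipocytes. Animals of both groups had been on a high fat diet for 3 months. The other cells of the tissue keep their Yy1, and the controls carry no Cre.

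The pathway begins with an aminotransferase in the mitochondrion, encoded by Bcat2, which moves the amino group of the amino acid and leaves a branched-chain keto acid. The branched-chain keto acid dehydrogenase complex then removes carbon dioxide and attaches coenzyme A, and this is the committed step. After it the routes part: the leucine branch ends in acetyl-CoA and acetoacetate, and the isoleucine and valine branches reach succinyl-CoA by way of propionyl-CoA. Brown adipose tissue is known for taking up and oxidising these amino acids when it makes heat.

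Yy1, the zinc finger transcription factor removed in YY1bKO brown adipocytes, had log2 intensities of 9.90, 9.62 and 9.95 on control arrays 1, 2 and 3 and of 8.38, 8.41 and 8.38 on YY1bKO arrays 1, 2 and 3 in its brightest probe set. The groups did not overlap, and the difference was -1.43 ± 0.11 on the log2 scale (SE, limma adjusted p = 0.000887). Over all probe sets, 1997 were called higher and 1619 lower in YY1bKO at an adjusted p under 0.05, which is 8.83% and 7.16% of those tested. The median log2 fold change of all probe sets was 0.03. These counts fell to 1002 and 811 without control replicate 1, to 808 and 773 without YY1bKO replicate 1, to 831 and 699 without YY1bKO replicate 2 and to 871 and 753 without YY1bKO replicate 3, and the lower count rose to 2473 without control replicate 2. Markers of brown adipocytes were bright on all arrays, Ucp1 with log2 intensities from 13.71 to 13.97.

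In YY1bKO tissue 5 of the 10 member genes were called lower, and the other 5 were not called. All 14 member probe sets had a log2 fold change below 0, against 43.7% of all probe sets, and their median was -0.55. Of the 14, 7 were called lower and 0 higher by limma, where 7.16% of all probe sets were called lower. An unadjusted p under 0.05 was reached by 9 of the 14 and by 6832 of all 22626 probe sets. With dim probe sets left out of the fit, 7 of 11 member probe sets and 1558 of all 11313 were called lower. In 8 of the 14 the YY1bKO values all lay below the control values, against 15.1% of all probe sets. Counted by the brightest probe set of each gene, the 5 called genes were Dbt, Pccb, Bckdha, Ivd and Mccc1, against a share called lower of 7.78% over 12393 genes. Leaving out single arrays gave 5 to 9 called member probe sets, and the 5 probe sets of Dbt, Pccb, Bckdha and Ivd were called whichever array was left out.

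**Figure D1:**
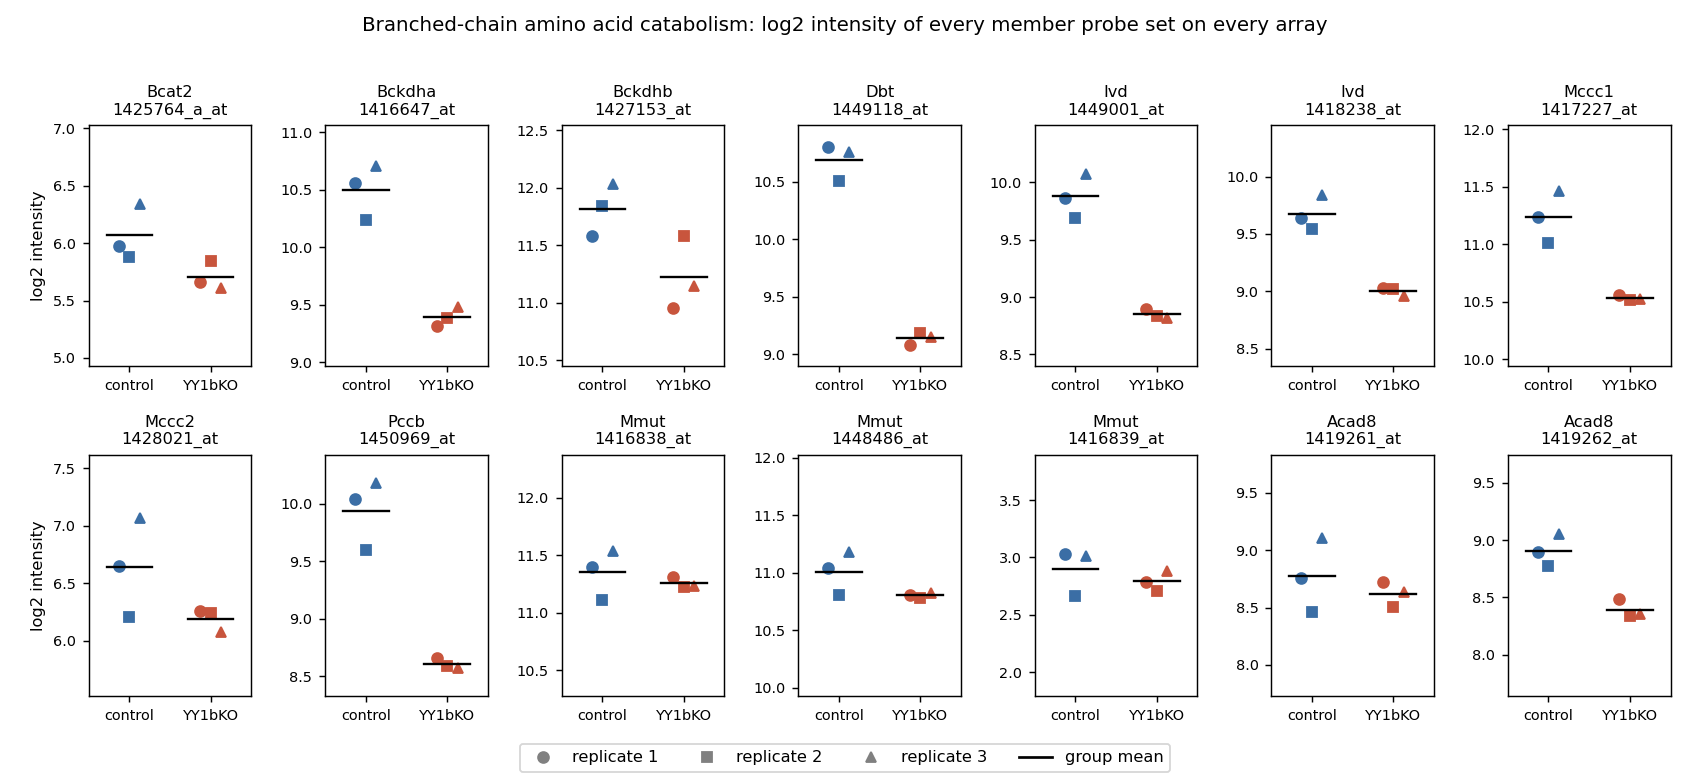
Log2 intensity (y axis) of each of the 14 member probe sets on the 3 control (blue) and 3 YY1bKO (red) arrays, with group means as bars; every panel spans the same number of log2 units. The YY1bKO values of Dbt, Pccb, Bckdha, Ivd and Mccc1 lie below all control values, and those of the 3 Mmut probe sets overlap them.

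Bcat2, the mitochondrial aminotransferase, was dim, lying under the middle of the range of probe set means. Its log2 intensities were 5.98, 5.88 and 6.35 in control and 5.66, 5.85 and 5.61 in YY1bKO arrays 1 to 3. The highest YY1bKO value came close to the lowest control value without overlapping it. The difference of -0.36 ± 0.14 (SE, limma adjusted p = 0.134) did not pass the threshold, and its 95% interval ran from -0.69 to -0.03. Leaving out single arrays gave -0.46 to -0.22, none of them called. Bcat1, the cytosolic aminotransferase, was also dim and spread over 3.96 to 6.38 in control and 4.09 to 4.76 in YY1bKO arrays. Its difference was -0.82 ± 0.56 (SE, adjusted p = 0.382), and leaving out single arrays moved it from -0.22 without control replicate 1 (adjusted p = 0.782) to -1.43 with a call (adjusted p = 0.0246) without control replicate 2.

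The branched-chain keto acid dehydrogenase complex is built from a decarboxylase with alpha and beta subunits, an acyltransferase core and a dihydrolipoyl dehydrogenase. Dbt, the acyltransferase core, showed the largest change of all members. Its log2 intensities were 10.80, 10.51 and 10.76 in control and 9.08, 9.19 and 9.15 in YY1bKO arrays. The YY1bKO values lay within a narrow band, more than a log2 unit under the lowest control value. Dbt was 2.93-fold lower (log2 fold change -1.55 ± 0.10, SE, limma adjusted p = 0.000722).

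Bckdha, the alpha subunit of the decarboxylase, had log2 intensities of 10.56, 10.24 and 10.71 in control and 9.31, 9.38 and 9.48 in YY1bKO arrays. It was 2.16-fold lower (-1.11 ± 0.13, SE, adjusted p = 0.00373), and the groups did not overlap. Its partner Bckdhb, the beta subunit, had 11.58, 11.84 and 12.04 in control and 10.96, 11.58 and 11.14 in YY1bKO arrays. YY1bKO replicate 2 stood at the level of control replicate 1, so the groups met. The Bckdhb difference of -0.59 ± 0.19 (SE, adjusted p = 0.0776) was not called, with a 95% interval from -1.03 to -0.15. Without YY1bKO replicate 2 it was -0.77 and was called (adjusted p = 0.0483), and without YY1bKO replicate 1 it was -0.46 (adjusted p = 0.214).

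The remaining parts of this step did not pass the test. Dld, the dihydrolipoyl dehydrogenase that this complex shares with the pyruvate and 2-oxoglutarate dehydrogenases, gave -0.11 ± 0.12 (SE, adjusted p = 0.599), and Bckdk, the kinase that switches the complex off, gave 0.18 ± 0.09 (SE, adjusted p = 0.225) with groups that did not overlap. Ppm1k, the phosphatase that switches it on, is not analysed here.

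The log2 intensities of subunits were compared within arrays. The within-array difference Bckdhb minus Dbt had a mean of 1.13 ± 0.31 on control arrays and 2.09 ± 0.27 on YY1bKO arrays (SD, n = 3), a shift of 0.96 log2 units toward a lower Dbt. For Bckdha against Dbt the shift was 0.44 and for Bckdha against Bckdhb it was -0.52. In each of these pairs the groups did not overlap, with a two-sided exact permutation p of 0.1, the smallest that 3 against 3 arrays allow, and 0.125 after Benjamini-Hochberg adjustment over the 5 subunit pairs compared, so no pair could pass the threshold.

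The deleted factor binds a DNA element with the core CCAT. RefSeq promoter windows of GRCm38.p6, which reach from 250 bases before to 50 after an annotated transcript start, were at hand for 8 members, and a longer form of the element, CGCCAT with its reverse complement ATGGCG, was sought on both strands. Each match of the longer form also holds the core. It was found in windows of 4 members, given here 5′ to 3′ on the strand of the gene with the match in capitals. The matches start at base 22 (Bckdha), 28 (Ivd), 28 (Pccb) and 34 (Bckdhb) counted from the transcript start.
Bckdha, chr7:25658723-25658752, minus strand: ttattagccaagATGGCGatagtgatgtct
Ivd, chr2:118862009-118862038, plus strand: tgcaccgcagagATGGCGactgcaatccgg
Pccb, chr9:101034840-101034869, minus strand: aaaaaaaaaaaaATGGCGgcggcgattagg
Bckdhb, chr9:83925157-83925186, plus strand: ctgagaactggggATGGCGgcggtggctgc

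Of these genes Bckdha, Ivd and Pccb were called lower and Bckdhb was not. The longer form was in 40.0% of the 10 member windows, in 8.93% of all 32851 windows and in 12.6% of the 12560 windows of genes on the array. The core alone was in all 10 member windows and in 83.1% of all windows. Mccc1, which was called lower, and Bcat2, Mccc2 and Acad8 had no match of the longer form in their windows. Dbt and Mmut, the members with the largest and the smallest change, had no window and could not be searched. These shares are over whole windows, and how often other windows hold a match so soon after the transcript start was not tested. Every match reads ATGGCG on the strand of the gene and so begins with ATG, the letters of a start codon. Whether the matches are translation starts was not tested, and nothing is read here from their alike places. Such a match is a string of letters, and binding was not measured.

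In the leucine branch, Ivd encodes isovaleryl-CoA dehydrogenase, the first enzyme after the keto acid dehydrogenase. Its brighter probe set had log2 intensities of 9.87, 9.69 and 10.07 in control and 8.90, 8.84 and 8.82 in YY1bKO arrays. Ivd was 2.03-fold lower there (-1.02 ± 0.11, SE, adjusted p = 0.00267). The other Ivd probe set went from 9.64, 9.55 and 9.84 to 9.03, 9.02 and 8.96, a smaller log2 fold change of -0.67 ± 0.10 (SE, adjusted p = 0.00689). Neither probe set showed an overlap of the groups.

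Methylcrotonyl-CoA carboxylase, the biotin enzyme that follows, is made of the subunits encoded by Mccc1 and Mccc2. Mccc1 had log2 intensities of 11.23, 11.01 and 11.46 in control and 10.56, 10.51 and 10.52 in YY1bKO arrays, with no overlap. It was 1.63-fold lower (-0.70 ± 0.12, SE, adjusted p = 0.0117), a call that missed the threshold when YY1bKO replicate 2 was left out (-0.69, adjusted p = 0.0526) and likewise for YY1bKO replicate 3 (-0.70, adjusted p = 0.0506). Mccc2, a dim probe set, had 6.65, 6.20 and 7.06 in control and 6.26, 6.24 and 6.07 in YY1bKO arrays, and control replicate 2 lay below 2 YY1bKO arrays. Its difference of -0.45 ± 0.21 (SE, adjusted p = 0.198) was not called, with a 95% interval from -0.94 to 0.04, and it was -0.67 with a call without control replicate 2 (adjusted p = 0.0156) but -0.24 without control replicate 3 (adjusted p = 0.356). The shift of Mccc1 minus Mccc2 was -0.26, with overlapping groups (two-sided exact permutation p = 0.2, also 0.2 after adjustment).

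The rest of the leucine branch, from a list that holds no member, had 3 of 4 measured genes called lower and 0 higher, where 7.78% of all genes were called lower and 9.72% higher. Auh, the hydratase that acts on methylglutaconyl-CoA, fell by 1.34 ± 0.12 log2 units (SE, adjusted p = 0.00165). Its other 3 probe sets were dim and gave -0.18, 0.01 and 0.15, so that in the mean over its probe sets Auh gave -0.34 and lost its call (adjusted p = 0.134). Oxct1, which lets mitochondria use acetoacetate, fell by 1.00 ± 0.11 (SE, adjusted p = 0.0032), and its other 3 probe sets gave -1.23 to -1.09. Acat1, the thiolase that makes acetyl-CoA, fell by 0.45 ± 0.11 (SE, adjusted p = 0.0387). This Acat1 call was lost without any array except control replicate 2, with an adjusted p of up to 0.133. The less bright Acat1 probe sets fell by 0.51 and 0.57 without overlap (limma adjusted p = 0.0200 and 0.0180). Aacs, the cytosolic acetoacetyl-CoA synthetase, gave -0.08 (adjusted p = 0.93).

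Acad8 encodes isobutyryl-CoA dehydrogenase of the valine branch, and 1 of its 2 probe sets was called lower. The brighter one had log2 intensities of 8.75, 8.46 and 9.10 in control and 8.72, 8.50 and 8.63 in YY1bKO arrays, with overlapping groups and a difference of -0.15 ± 0.17 (SE, adjusted p = 0.598). The other had 8.89, 8.77 and 9.05 in control and 8.49, 8.33 and 8.36 in YY1bKO arrays. There the groups did not overlap, and the difference of -0.51 ± 0.10 (SE, adjusted p = 0.0173) was called. Leaving out control replicate 1 raised its adjusted p to 0.0574, leaving out YY1bKO replicate 2 to 0.0723 and leaving out YY1bKO replicate 3 to 0.0708, so that the call was lost. The difference between the probe sets was not tested, and both values lie below 0. In the mean over both, Acad8 gave -0.33 and was not called (adjusted p = 0.129).

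Further down the valine branch, 3 of 4 measured genes were called lower and 0 higher, again where 7.78% of all genes were called lower. Hibadh, the hydroxyisobutyrate dehydrogenase, fell by 0.83 ± 0.12 (SE, adjusted p = 0.00625) and Aldh6a1, the semialdehyde dehydrogenase that yields propionyl-CoA, by 0.77 ± 0.11 (SE, adjusted p = 0.00621). Hibch, the hydrolase before Hibadh, had 2 probe sets, of which the brighter fell by 0.58 ± 0.14 (SE, adjusted p = 0.0377) and the other by 0.75 ± 0.10 (SE, adjusted p = 0.00485). The former Hibch call was lost without any array except control replicate 2 (adjusted p of up to 0.126). Abat, a transaminase that also acts on gamma-aminobutyrate, was dim at 0.05 (adjusted p = 0.785).

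The isoleucine branch had 3 of 7 measured genes called lower and 0 higher, where 7.78% of all genes were called lower and 9.72% higher. Hsd17b10, the hydroxyacyl-CoA dehydrogenase of this branch, fell by 1.10 ± 0.10 (SE, adjusted p = 0.0014), and by 1.31 in its other probe set. Acadsb, the dehydrogenase for branched short chains, fell by 0.67 ± 0.09 (SE, adjusted p = 0.00508). Echs1, a hydratase shared with fatty acid oxidation, fell by 0.89 ± 0.12 (SE, adjusted p = 0.00485). The 4 genes that were not called, Hadh, Hadha, Hadhb and Acaa2, also serve fatty acid oxidation and lay between -0.13 and -0.06.

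Propionyl-CoA carboxylase joins the isoleucine and valine branches, and its beta subunit Pccb had log2 intensities of 10.04, 9.60 and 10.18 in control and 8.66, 8.59 and 8.57 in YY1bKO arrays. The YY1bKO values were nearly alike, and all lay well below control replicate 2, the lowest control. Pccb was 2.52-fold lower (-1.33 ± 0.15, SE, adjusted p = 0.00328). Pcca, the biotin-carrying alpha subunit and no member, went from 12.21, 11.87 and 12.36 to 11.38, 11.38 and 11.40. It fell by 0.76 ± 0.13 (SE, adjusted p = 0.0113), a call lost without YY1bKO replicate 2 (adjusted p = 0.0503). The within-array difference Pcca minus Pccb had a mean of 2.21 ± 0.06 on control arrays and 2.78 ± 0.06 on YY1bKO arrays (SD, n = 3), a shift of 0.58 with no overlap (two-sided exact permutation p = 0.1, adjusted 0.125).

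Mmut, the cobalamin-dependent mutase that makes succinyl-CoA, was the member with the smallest difference. Its brightest probe set had log2 intensities of 11.40, 11.11 and 11.54 in control and 11.31, 11.23 and 11.24 in YY1bKO arrays. All 3 YY1bKO values lay inside the control range. The difference was -0.09 ± 0.12 (SE, adjusted p = 0.667), with a 95% interval from -0.37 to 0.19, which leaves out falls as large as those of Dbt, Pccb, Bckdha, Ivd or Mccc1. The second Mmut probe set gave -0.21 (95% interval -0.46 to 0.05, adjusted p = 0.253), with -0.31 and a call without control replicate 2 (adjusted p = 0.0432) but -0.12 without control replicate 3 (adjusted p = 0.474). The third, very dim, gave -0.11 (adjusted p = 0.613).

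Around the mutase, 6 of 9 measured genes of the list for propionate, cobalamin supply and succinyl-CoA were called lower and 0 higher. Pcca is one of these 6, and over all genes 7.78% were called lower and 9.72% higher. Mmachc and Mmadhc, which process and route cobalamin, fell by 0.69 ± 0.09 (SE, adjusted p = 0.00485) and 0.51 ± 0.08 (SE, adjusted p = 0.00978). Suclg2, Suclg1 and Sucla2, the subunits of succinyl-CoA synthetase, had log2 fold changes of -2.25, -0.50 and -0.38. The Suclg1 call was lost when the array left out was control replicate 1 or either of YY1bKO replicates 1 and 2 (adjusted p of up to 0.0715), and that of Sucla2 without any array except control replicate 2 (up to 0.112). Mmaa (-0.44), Mcee (-0.21) and Mmab (0.01) were not called in their brightest probe sets. The brightest Mmab probe set had a mean of 6.61. Another Mmab probe set, with a mean of 6.60, gave -0.48 without overlap and without a call (adjusted p = 0.0539). The dimmest Mmab probe set fell by 0.76 (adjusted p = 0.00248).

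**Figure D2:**
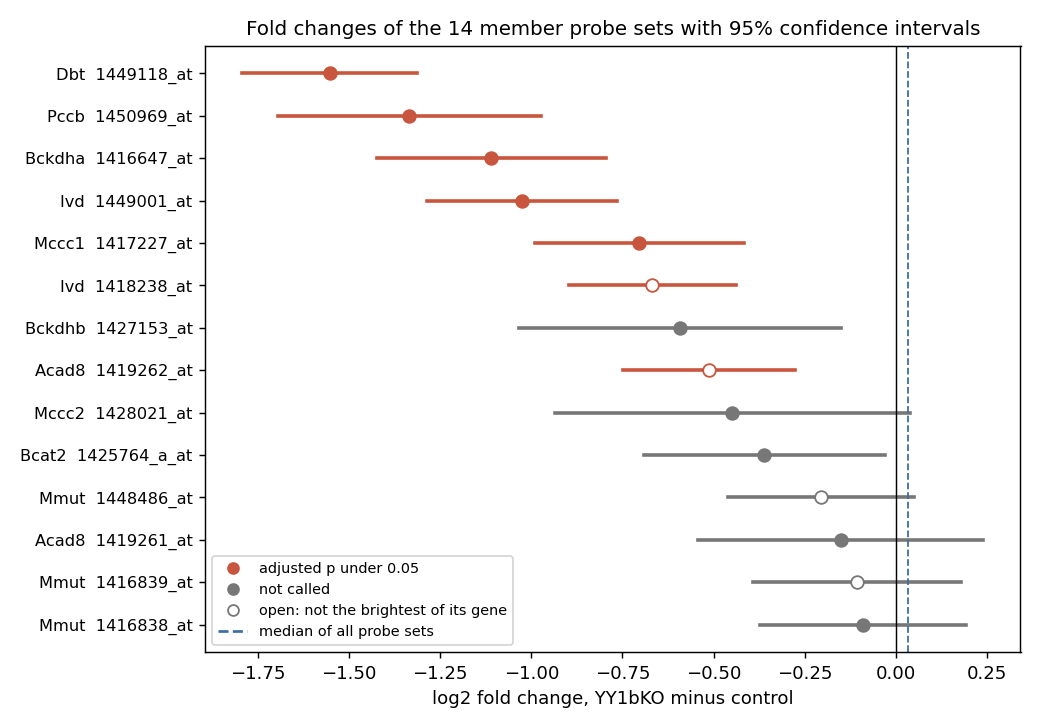
Log2 fold change (x axis, YY1bKO minus control) of each of the 14 member probe sets (y axis) with its 95% confidence interval from limma; filled points are the brightest probe set of a gene, red marks an adjusted p under 0.05 and the dashed line is the median of all probe sets, 0.03. The values run from -1.55 for Dbt to -0.09 for Mmut, and every point lies below 0.

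Ordered by the brightest probe set, the log2 fold changes were -1.55 (Dbt), -1.33 (Pccb), -1.11 (Bckdha), -1.02 (Ivd), -0.70 (Mccc1), -0.59 (Bckdhb), -0.45 (Mccc2), -0.36 (Bcat2), -0.15 (Acad8) and -0.09 (Mmut). The 95% intervals of neighbours in this order overlapped throughout. Those of Dbt (-1.79 to -1.31) and Bckdhb (-1.03 to -0.15) did not overlap, nor did those of Dbt and Mccc1 (-0.99 to -0.42), or of Ivd (-1.28 to -0.76) and Mmut (-0.37 to 0.19).

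Enzymes that resemble the members or share a cofactor with them were counted in the same way, and their difference from the members was not tested. Over all genes 7.78% were called lower and 9.72% higher. None of 5 measured genes of the pyruvate and 2-oxoglutarate dehydrogenases, the relatives of the branched-chain complex, was called by limma (1 had an unadjusted p under 0.05), and their values ran from -0.31 for Pdhb to 0.14 for Pdha1. Of 8 other acyl-CoA dehydrogenases and their electron acceptors, Acads, for short chains, fell by 0.55 ± 0.12 (SE, adjusted p = 0.0264) and Etfb by 0.40 ± 0.09 (SE, adjusted p = 0.0245), both calls being lost without any array except control replicate 2 (adjusted p of up to 0.0967 and 0.0938). The other 6 of these were not called, at -0.30 to -0.06. None of 5 genes for biotin supply and other biotin enzymes was called by limma, with 3 of them above 0 and 2 below. The 1 with an unadjusted p under 0.05 was Acaca, which lay above 0 at 0.92 (adjusted p = 0.144).

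Of 5 measured carriers 1 was called higher and 1 lower, where 9.72% of all genes were called higher and 7.78% lower. Slc3a2, the heavy chain that large neutral amino acid transporters need at the cell surface, rose 3.68-fold, from 8.61, 8.35 and 8.59 in control to 10.30, 10.51 and 10.36 in YY1bKO arrays (1.88 ± 0.10, SE, adjusted p = 0.000476). Slc7a5, a light chain that pairs with it, was dim and gave 0.36 (adjusted p = 0.0874) with groups that did not overlap. Slc25a44, the mitochondrial carrier of branched-chain amino acids, gave 0.34 ± 0.16 (SE, adjusted p = 0.219). Slc16a7, a monocarboxylate carrier, fell by 1.22 ± 0.23 (SE, adjusted p = 0.0162) at dim intensities, a call lost when the array left out was control replicate 1 or either of YY1bKO replicates 2 and 3 (adjusted p of up to 0.0672).

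**Figure D3:**
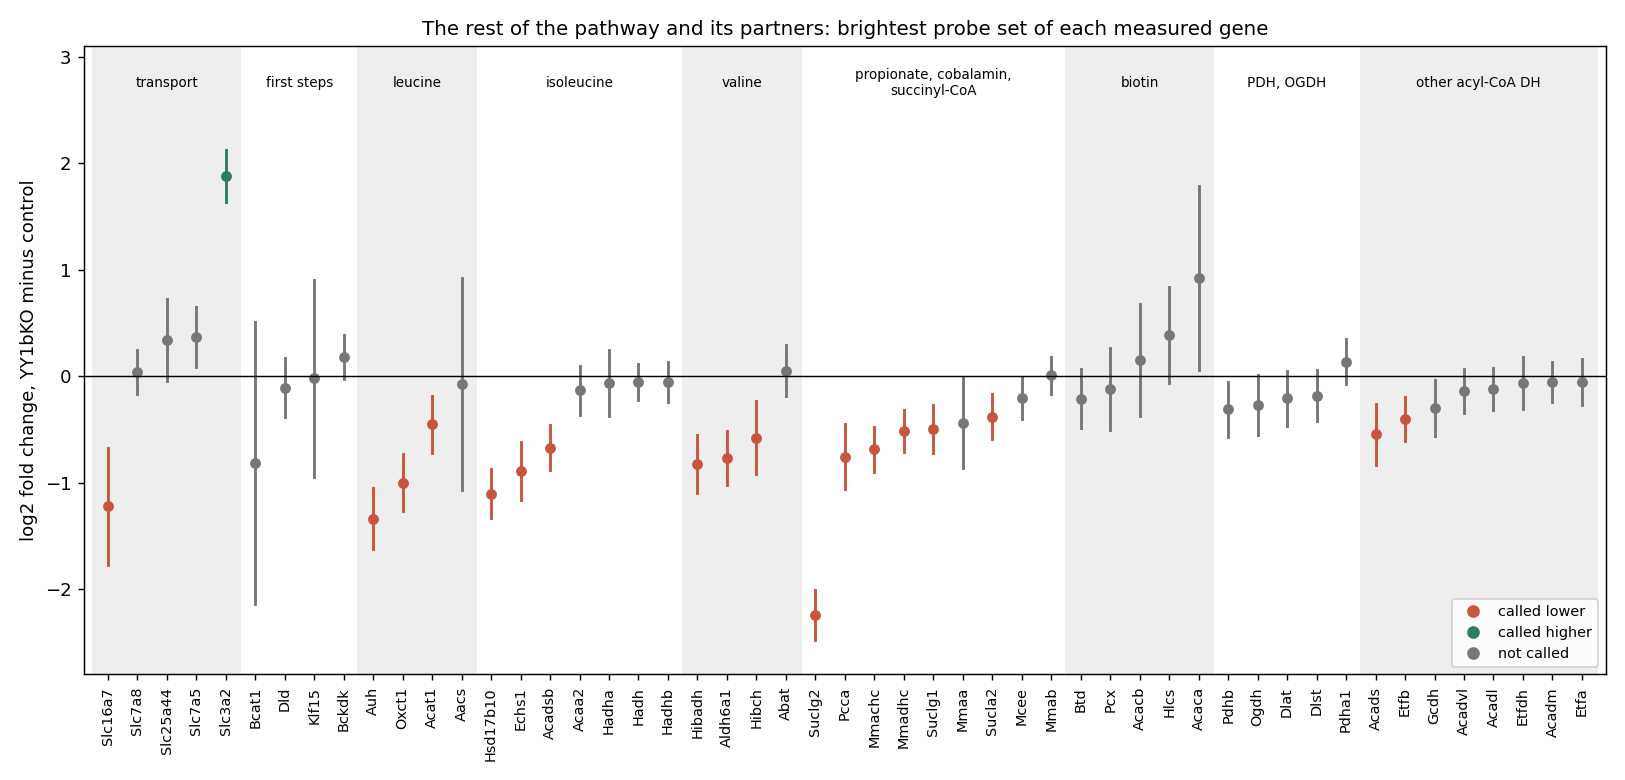
Log2 fold change (y axis, YY1bKO minus control) with 95% confidence interval for the brightest probe set of the 51 measured genes of the wider list (x axis), grouped by pathway step; PDH and OGDH are the pyruvate and 2-oxoglutarate dehydrogenases and DH stands for dehydrogenases. Called falls (red) lie in every amino acid branch and from propionate to succinyl-CoA, and Slc3a2 at 1.88 is the called rise (green).

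In all, the wider list of 57 genes had 51 measured, of which 18 were called lower and 1 higher, with a median log2 fold change of -0.21; over all genes 7.78% were called lower and 9.72% higher. The lower count was 11 without control replicate 1, 10 without YY1bKO replicate 2 and 23 without control replicate 2. The higher count was 2 without control replicate 2, control replicate 3 or YY1bKO replicate 1. Of the 19 called genes, 11 were called whichever array was left out. The remaining genes of that list are not analysed here.

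Across the 6 arrays the brightest probe sets most like Dbt, the member with the largest called change, were sought among 12392 other genes. They were S100a13, Mal2, Yy1, Ppt1 and Vegfb, with Pearson's r from 0.9987 to 0.9995. All of them, as such an r with Dbt requires, were lower in YY1bKO tissue. Their log2 fold changes ran from -2.99 for Mal2, which was dim, to -0.75 for S100a13. With 2 groups of 3 arrays such an r mostly reflects the group difference and is a description of these 6 values.

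Within the control group the members varied together. In 13 of 14 member probe sets control replicate 2 was the lowest control, which held for 45.4% of all probe sets, and in 12 of 14 control replicate 3 was the highest, against 39.4% of all probe sets. Bckdhb, with its lowest control value on replicate 1, was the exception to the former. The pattern was not particular to the members. In the wider list, control replicate 2 was the lowest control in 44 of 51 genes and control replicate 3 the highest in 60.8%. The median SD of the member probe sets was 0.22 in control and 0.07 in YY1bKO, against 0.14 and 0.10 over all probe sets. In 9 of the 14 probe sets all YY1bKO arrays lay below even control replicate 2, against 30% of all probe sets, the exceptions being the 3 Mmut probe sets, the brighter Acad8 probe set and Mccc2.

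**Figure D4:**
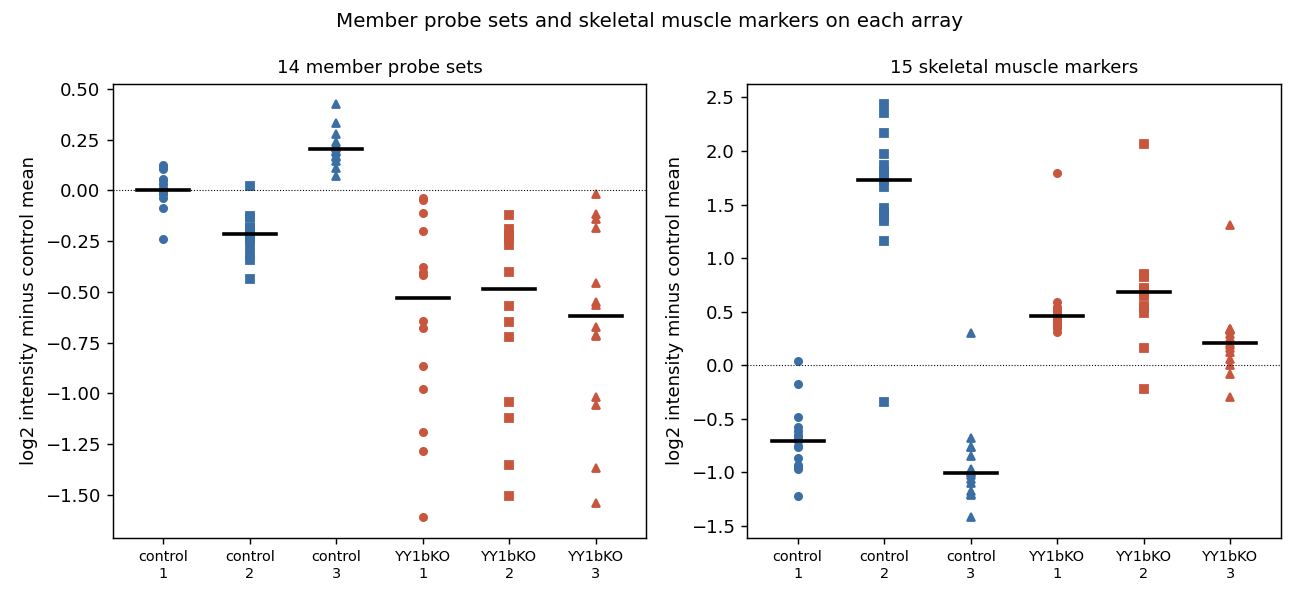
Log2 intensity minus the mean of the controls (y axes, of different range) on each array (x axes) for the 14 member probe sets and for 15 skeletal muscle markers; bars are medians over the genes shown. The median of control replicate 2 is the lowest control median in the members and the highest median of all arrays in the muscle markers, of which Myh7 alone lies below 0 there.

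Control replicate 2 also stood apart in markers of skeletal muscle, a tissue that itself uses branched-chain amino acids. The mean log2 intensity of 15 measured muscle markers was 11.10, 13.39 and 10.86 in control and 12.32, 12.47 and 12.02 in YY1bKO arrays. On control replicate 2, 14 of the 15 had their highest value of all arrays, and the exception, Myh7, had its lowest there and was the 1 marker called higher in YY1bKO. The group difference of 0.49 had a two-sided exact permutation p of 0.5, and it ran from 0.03 without control replicate 3 to 1.29 without control replicate 2. Without that array the falls of Dbt, Pccb and Bckdha were -1.64, -1.51 and -1.24. Against control replicate 2 alone, a single array whose muscle list mean was above that of every YY1bKO array, the YY1bKO mean was lower in 11 of the 14 member probe sets and higher in 3. Dbt stood there at -1.37, Pccb at -0.99, Bckdha and the brighter Ivd probe set at -0.84, Bckdhb at -0.61, the other Ivd probe set at -0.54, Mccc1 at -0.48, the less bright Acad8 probe set at -0.38 and Bcat2 at -0.17. Mccc2 and the second Mmut probe set lay near 0, at -0.013 and -0.0055, and the brightest and the dimmest Mmut probe set and the brighter Acad8 probe set lay above it, at 0.15, 0.13 and 0.16. The part of muscle RNA in the members' values was not tested.

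Among other marker lists, 6 endothelial genes had a mean log2 intensity of 8.19 to 8.36 in control and 7.65 to 7.89 in YY1bKO arrays, and 3 of them, Cdh5, Kdr and Tek, were called lower. The list of 9 brown adipocyte markers lay at 11.05 to 11.25 in control and 11.19 to 11.34 in YY1bKO arrays, with 3 called higher and 0 lower. Elovl3 (1.14), Ppargc1a (1.09) and Zic1 (0.90) were called. Dio2 (-0.87), Ebf2 (-0.39), Cox8b (-0.21), Ucp1 (-0.14) and Cidea (-0.12) lay below 0 without a call, and Cox7a1 gave 0.0043. The list of 5 markers of any adipocyte lay at 12.69 to 13.03 and 12.67 to 12.78, with 0 called by limma (1 had an unadjusted p under 0.05). The 3 measured neural or Schwann cell markers lay at 5.98 to 6.16 in control and 6.26 to 6.40 in YY1bKO arrays, also without overlap, with 0 called by limma (1 had an unadjusted p under 0.05). Of 6 white adipocyte markers 1 was called lower, Lep, which encodes leptin and was 4.01-fold lower (limma adjusted p = 0.009). The others were not called. Retn at 1.33, Hoxc8 at 0.82, Nnat at 0.43 and Hoxc9 at 0.24 lay above 0, and Agt at -0.09 below. The Retn groups did not overlap (limma adjusted p = 0.109). For these counts of markers, 7.78% of all genes were called lower and 9.72% higher. Exact permutation p-values of the 9 marker lists ran from 0.1 (endothelial and neural), the smallest possible here, to 1, and after Benjamini-Hochberg adjustment from 0.45 to 1. The part of the endothelial, neural and Lep differences in the members' values was not tested. In bulk tissue fewer cells of a type and less RNA per cell cannot be told apart.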

How the data were processed

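Per the submitters' processing notes, the authors processed the arrays with RMA, of a software and version not given in the sources used here. The deposited values are intensities on a linear scale, taken as back-transformed from RMA's log2 output, and were turned into log2 values with no pseudocount. RMA equalises the arrays' distributions, which hides a shift of most transcripts 1 way, and understates changes of dim probe sets. Array medians lay between 6.46 and 6.48, and no depth applies to arrays, so their number limits the precision.

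Of 22690 probe sets, 64 Affymetrix controls were left out. The platform annotation gave 1 symbol to 20380, several to 691 and none to 1555, and only the first were named. The test was limma (version 3.58.1, under R 4.3.3) on all 22626 probe sets, with lmFit, eBayes and group as the only term, two-sided, with Benjamini-Hochberg adjustment over all of them. Every adjusted p of a gene is from this fit or a named alternative of it. A gene is counted by its probe set with the highest mean over the arrays. The fit was tested on simulated data. Values per array were compared by exact permutation, which cannot go below 0.1 here. Named are Yy1, all member probe sets, called genes of the wider list with a few fixed ones, and the 5 genes most like the most changed member. Genes named beyond this rule, among them uncalled genes of the wider list and markers, were chosen after their values were seen. Members, lists and tests were chosen with earlier results of these data known. Since no label ties replicates to different animals, p-values reflect only the spread among these arrays, possibly technical. The labels used here name no batch. The position of the Yy1 probes against the deleted part is not known here. Alternatives were filters on dim probe sets, probe set summaries, normalization, a pseudocount, variance priors, array weights, a replicate block and leaving out each array; those of the marker lists were added after seeing the data.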

Additional observations from a re-analysis of the deposited data

How the results depend on the processing

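The 7 member probe sets called lower stayed 7 to 8 under every alternative that kept all arrays (dim filter, quantile normalization, median centring, pseudocount of 16, trend and robust prior, array weights, replicate block), and 0 were called higher in any. The 5 called member genes stayed 5 to 6, also in the mean over probe sets and with 1 probe set per gene. With array weights, 2622 of all probe sets were lower and 3 genes of the wider list higher. Control and YY1bKO replicates share their numbers 1 to 3. Deviations of same-numbered arrays from their group means had r of -0.23, 0.09 and 0.24, and control replicate 1 correlated best with YY1bKO replicate 3 (0.29). With 3 arrays per group the deviations constrain each other, so these values cannot tell whether same-numbered arrays are paired. With the replicate block, 1108 of all probe sets were called higher, 7 member probe sets lower and 14 wider genes lower. Leaving out 1 array gave 808 to 2607 higher and 699 to 2473 lower of all probe sets, and 1 to 2 higher and 10 to 23 lower of the wider list. It moved the brightest Mmut probe set between -0.21 and 0.0021, the brighter Acad8 probe set between -0.31 and 0.0145, and the white adipocyte, macrophage and fibroblast marker lists between -0.19 and 0.35, -0.19 and 0.15, and -0.21 and 0.27; the cause was not tested. Bcat2, Mccc2 and 1 Mmut probe set were dim, and what low signal does to their values was not tested.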
